A study of Mus musculus with 6 samples.

Results

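The keratins described here are *Krt12*, *Krt5*, *Krt15*, *Krt7*, *Krt8*, *Krt18* and *Krt19*, 7 of the 51 keratin genes among the 17554 genes of the deposited table. They were picked by symbol, as the main keratin of the corneal epithelium, keratins of its basal and limbal cells, and keratins of simple epithelia. Their transcripts were measured by bulk RNA-seq, which pools the RNA of every cell of a sample, in the corneal epithelial layer of C57BL/6 mice at 2 months of age. The 3 control samples are labelled WT, and the 3 mutant samples are labelled *Rela*-/- and come from *Krt14-Cre; Rela f/f* mice. In these mice a recombinase driven by the keratin 14 promoter deletes the floxed segment of *Rela*, the gene for RelA, a subunit of the transcription factor NF-κB. The *Krt14* promoter is also active in the conjunctiva, the meibomian glands and the epithelia of other organs, so deletion there too is possible. The samples were given as independent biological samples, but whether each came from 1 mouse or from pooled mice was not given in the sources used here, so p-values measure the spread between these samples.

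Keratins are the intermediate filament proteins of epithelial cells. Each filament is built from pairs of a type I and a type II keratin, so cells express members of both types together. *Krt12* is the type I keratin of the differentiated corneal epithelium, where a type II partner such as KRT5 is needed. *Krt5* is the type II keratin of basal cells of stratified epithelia and *Krt15* a type I keratin of basal cells that is strong at the limbus, the rim of the cornea that holds its stem cells. *Krt8* and *Krt18* form the classic pair of simple, single-layered epithelia, and *Krt7* (type II) and *Krt19* (type I) accompany them in ducts, glands and the conjunctiva.

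The 7 genes lie in the clusters of keratin genes of the mouse genome (coordinates of GRCm38, as the deposited table gives them). *Krt12* (gene 268482) lies on chromosome 11 from 99415664 to 99422593, *Krt15* (gene 16665) from 100131759 to 100135949 and *Krt19* (gene 16669) from 100140810 to 100145926, all on the minus strand. On chromosome 15, *Krt5* (gene 110308) extends from 101707070 to 101712891 on the minus strand and *Krt7* (gene 110310) from 101412403 to 101427806 on the plus strand. Also on chromosome 15 are *Krt8* (gene 16691), from 101996711 to 102004342 on the minus strand, and *Krt18* (gene 16668), from 102028216 to 102032026 on the plus strand. *Krt18* is thus a type I gene at the edge of the type II cluster, and in GENCODE no other protein-coding gene is nearer to it than *Krt8*, with a gap of 23698 bases between them.

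The sequences upstream of 3 start sites are shown, those of *Krt8* and *Krt18*, the neighbouring pair whose measured differences had opposite signs, and that of *Krt5*, an abundant keratin with a κB-like match. Each is the 250 bases before the RefSeq start of the gene (GRCm38.p6), written 5′ to 3′ on the strand of the gene, and capitals mark matches on either strand to CACCC, a motif of KLF factors, or to GGNNNTTCC, a loose form of the κB motif. The stretches lie at chr15:102004343-102004592 (minus strand), chr15:102027966-102028215 (plus strand) and chr15:101712906-101713155 (minus strand).
*Krt8*: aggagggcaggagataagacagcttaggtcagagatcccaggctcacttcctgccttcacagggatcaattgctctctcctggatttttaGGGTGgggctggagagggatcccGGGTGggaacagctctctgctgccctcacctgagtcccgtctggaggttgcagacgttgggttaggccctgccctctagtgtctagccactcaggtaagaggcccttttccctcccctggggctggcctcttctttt
*Krt18*: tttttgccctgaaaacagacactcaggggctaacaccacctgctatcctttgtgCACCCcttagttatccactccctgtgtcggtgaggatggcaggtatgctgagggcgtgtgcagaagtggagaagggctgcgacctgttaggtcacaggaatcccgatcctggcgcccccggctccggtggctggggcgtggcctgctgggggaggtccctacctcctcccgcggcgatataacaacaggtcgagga
*Krt5*: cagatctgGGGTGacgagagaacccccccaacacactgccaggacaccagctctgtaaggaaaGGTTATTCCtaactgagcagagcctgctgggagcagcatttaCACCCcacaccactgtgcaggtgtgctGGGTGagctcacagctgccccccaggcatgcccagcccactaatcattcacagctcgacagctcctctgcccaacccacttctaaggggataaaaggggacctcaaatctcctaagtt
The loose κB form was found once in the *Krt5* stretch, 187 bases before the start, and once in that of *Krt7*. It was not found in these letters for *Krt12*, *Krt8* or *Krt18*, and 15.7% of the 32851 RefSeq promoters held it in the same window. CACCC was found in the stretches of *Krt12* (4 matches), *Krt5* (3), *Krt8* (2), *Krt7* (1) and *Krt18* (1), against 52.0% of all promoters with at least 1. TATAAA was found in *Krt12*, at 29 bases before the start, and in 12.4% of all promoters. TGANTCA, a form of the AP-1 motif, had no match in these 5 stretches and was present in 6.75% of all promoters. No match to one of the 4 motifs overlapped a match to another in these 5 stretches. *Krt15* and *Krt19* were not analysed here for motifs.

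Total expected counts were similar across samples, at 19492942 to 19733834, and 3 counts, taken as the floor of detection, equalled 0.152 to 0.154 CPM (this covers counting error alone, as PCR copies of a molecule count as separate reads). *Rela* had an FPKM of 33.4 to 36.5 in control corneas and of 4.93 to 5.72 in mutant corneas. The first principal component of all tested genes separated the genotypes, and the mutant sample 1 lay apart from the other mutant samples on the second (24.1 against -9.53 and -20.6). Of the markers listed for the corneal epithelium, 7 of 7 were detected in each sample, with a summed FPKM of 45652 to 49689 in control and 39895 to 44394 in mutant corneas. That list holds *Krt12* and *Krt5*. *Aldh3a1*, an abundant corneal crystallin, fell by 0.25 on the log2 scale, *Epcam*, an epithelial adhesion molecule, was 0.30 higher (adjusted p = 0.047 and 0.030 by edgeR, Benjamini-Hochberg), and *Tkt* and *Pax6* had values of -0.30 and -0.15 (adjusted p = 0.065 and 0.19 from the same test). In bulk samples, fewer cells of a type and less RNA per cell cannot be told apart.

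Each of the 7 keratins was tested, and 2 fell in mutant corneas, *Krt8* and *Krt15*. *Krt12* and *Krt5*, which make up most of the keratin RNA, did not pass the test, nor did *Krt7* and *Krt19*. *Krt18* was higher in each mutant sample than in each control sample, but its adjusted p missed 0.05. The test was edgeR's quasi-likelihood test on rounded expected counts with Benjamini-Hochberg adjustment over 12667 genes, and a gene is said to have risen or fallen at an adjusted p under 0.05. At that threshold 2 of the 7 were called, against 13.2% of all genes tested. Both were lower in mutant corneas, a direction called in 5.42% of all genes, and 0 of the 7 were higher, a direction called in 7.82% (edgeR, with 1 member higher at an unadjusted p under 0.05, and 0 with DESeq2 or limma at an adjusted p under 0.05). At the stricter thresholds of the study's methods, a 2-fold or larger difference with an adjusted p not above 0.001, 0 of the 7 were called, against 1.37% of all genes. At an unadjusted p under 0.05 the edgeR test gave 3 of the 7, against 3565 of all 12667 genes tested. Among these 3 was *Krt18*, which passed the filter on low counts only through the mutant group. At the stricter thresholds DESeq2 gave 1, *Krt8*, against 330 of all 12667 genes. There limma gave 0, against 114 genes on log2(FPKM + 1) and 161 on log2(FPKM + 0.1).

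**Figure D1:**
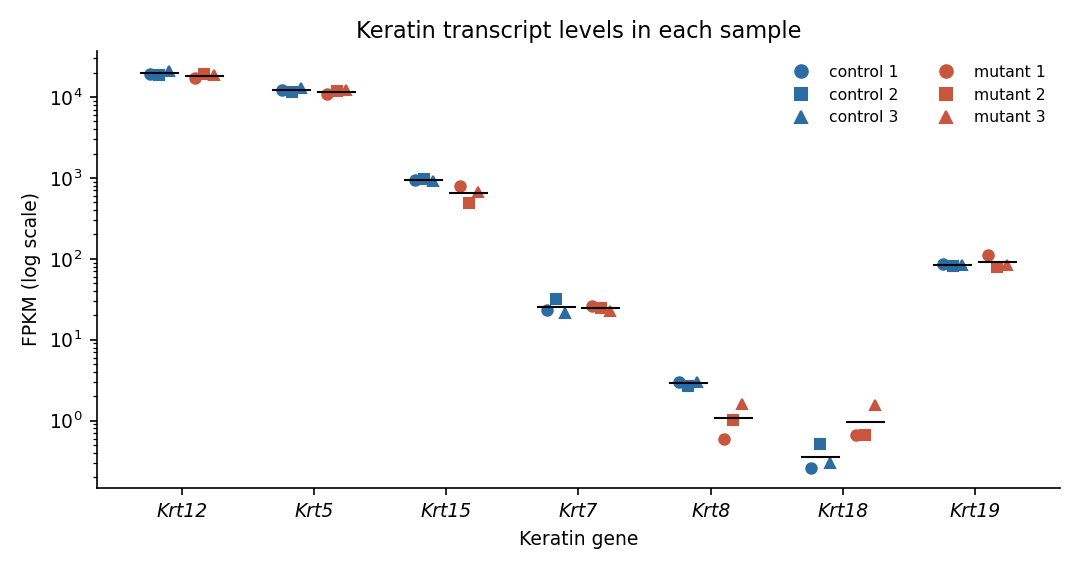
FPKM of the 7 keratins (log axis) in each of the 3 control (blue) and 3 mutant (red) samples, with a line at each group mean and a symbol for each replicate number. *Krt12* and *Krt5* lie at 10806 or above in each sample, *Krt8* and *Krt18* at 0.26 to 3.02, and the groups are apart in *Krt15*, *Krt8* and *Krt18*.

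By FPKM, a value per length of transcript, the order in control corneas was *Krt12*, *Krt5*, *Krt15*, *Krt19*, *Krt7*, *Krt8* and *Krt18*. Each pair of neighbours in this order was apart, since the lowest sample of one was above the highest sample of the next. *Krt12* was the gene with the highest FPKM of the whole table in each of the 6 samples, and *Krt5* ranked from 2 to 4. The order of the means was the same in mutant corneas, but there *Krt8* (0.60 to 1.61 FPKM) and *Krt18* (0.66 to 1.57 FPKM) overlapped and were not separated. The mean level spanned from 19694 FPKM for *Krt12* to 0.36 FPKM for *Krt18* in control corneas.

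*Krt12* had an FPKM of 19016, 18871 and 21194 in control corneas and of 17005, 19245 and 18561 in mutant corneas. The mutant samples 2 and 3 were within or just below the control range and the mutant sample 1 was lowest, so the groups overlapped. The mean was 19694 ± 1301 FPKM (SD, n = 3) in control and 18270.4 ± 1148 FPKM (SD, n = 3) in mutant corneas. The log2 fold change of -0.15 (standard error, SE, 0.080, adjusted p = 0.26 by edgeR, Benjamini-Hochberg) had a 95% interval from -0.33 to 0.03, which corresponds to a fold of 0.798 to 1.02. In GENCODE, 54.4% of the exon bases of *Krt12* overlap *A830036E02Rik*, a gene on the opposite strand. The sources used here do not say whether counting used strand, and without strand the reads of both genes in the overlap cannot be told apart.

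*Krt5* had 12077, 11549 and 12786 FPKM in control corneas and 10806, 11726 and 12189 FPKM in mutant corneas. The lowest value was again in the mutant sample 1, and the other mutant samples lay inside the control range. Its log2 fold change was -0.07 (SE 0.078, 95% interval -0.25 to 0.10, adjusted p = 0.59 by edgeR). Of its 50-base windows, the length of a read, 12.2% also occur in transcripts of other genes, *Krt6a* first with 6.98%. *Krt6a* rose by 0.51 in log2 units (adjusted p = 0.0044 by edgeR), and how far reads shared between these genes moved the value of *Krt5* was not tested.

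*Krt15* was tightly grouped in control corneas, at 950.5, 969 and 922 FPKM, and spread in mutant corneas, at 795, 486 and 666 FPKM. All mutant values were under the control values, and the mutant sample 2 was lowest. The mean fell from 947 ± 23.6 FPKM (SD, n = 3) to 649 ± 155 FPKM (SD, n = 3), a fold of 0.684 with a 95% interval of 0.543 to 0.861. The log2 fold change was -0.55 (SE 0.148, adjusted p = 0.039 by edgeR, Benjamini-Hochberg). Over the 13 other fits tried the value stayed negative and its adjusted p was under 0.05 in 7, with a range from 7.6e-04 (DESeq2) to 0.127 (edgeR). Without the mutant sample 2 the log2 fold change was -0.38 (adjusted p = 0.059 from edgeR), and without the mutant sample 1 it was -0.73 (adjusted p = 0.0025 from edgeR). The call was also lost without the control sample 1, 2 or 3 (adjusted p = 0.094, 0.127 and 0.105) and without the mutant sample 3 (adjusted p = 0.074), each from edgeR.

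**Figure D2:**
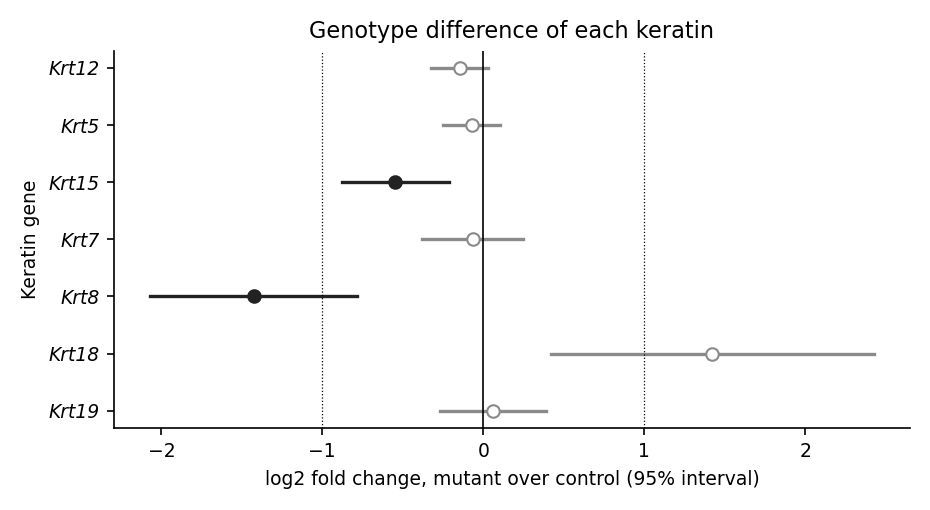
log2 fold change of each keratin, mutant over control, with its 95% interval from edgeR's quasi-likelihood fit. Filled black points have an adjusted p under 0.05, open grey points do not, and dotted lines mark a 2-fold difference. The intervals of *Krt12*, *Krt5*, *Krt7* and *Krt19* include 0, and *Krt8* (-1.43) and *Krt18* (1.42) lie on opposite sides. *Krt18* passed the filter on low counts only through the mutant group, so its interval is not used as support.

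Among the keratins of simple epithelia, *Krt8* had the clearest difference. Its FPKM was 2.97, 2.68 and 3.02 in control corneas and 0.60, 1.02 and 1.61 in mutant corneas. The highest mutant sample, 3, was still below the lowest control sample. These values rest on 105, 94 and 106 expected counts in control corneas and on 21, 36 and 57 in mutant corneas, well above the floor of 3 counts. *Krt8* fell from 2.89 ± 0.184 to 1.08 ± 0.507 FPKM (SD, n = 3 each), a fold of 0.372 with a 95% interval of 0.238 to 0.580. The log2 fold change was -1.43 (SE 0.286, adjusted p = 0.0105 by edgeR, Benjamini-Hochberg), and it stayed negative with an adjusted p under 0.05 in 13 of 13 other fits. Of the 50-base windows of *Krt8*, 29.7% also occur in transcripts of other genes, 26.9% in the pseudogene *Krt8-ps*, and how far such reads moved its value was not tested.

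*Krt18*, the type I partner of *Krt8*, had 0.26, 0.52 and 0.30 FPKM in control corneas and 0.67, 0.66 and 1.57 FPKM in mutant corneas. The groups did not overlap, and the mutant sample 3 was far above the other mutant samples. The counts were few, at 7, 14 and 8 in control corneas and 18, 18 and 43 in mutant corneas, and the gene passed the filter on low counts only through the mutant group. Its log2 fold change was 1.42 (SE 0.447, 95% interval 0.42 to 2.43, adjusted p = 0.067 by edgeR, Benjamini-Hochberg), so it was not called. Without the mutant sample 3 the value was 0.90 (adjusted p = 0.21), and without the mutant sample 1 it was 1.63 (adjusted p = 0.044), both from edgeR. With no filter on low counts it was 1.42 (adjusted p = 0.062 from edgeR). Because *Krt18* entered through the group in which it is high, its interval and p-values describe the fits and are not used as support.

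*Krt7*, a type II keratin of ductal and glandular epithelia, had 23.6, 32.3 and 21.35 FPKM in control corneas and 26.4, 24.6 and 22.7 FPKM in mutant corneas. Every mutant value lay inside the control range, whose upper end was set by the control sample 2. Its log2 fold change was -0.07 (SE 0.139, 95% interval -0.38 to 0.25, adjusted p = 0.80 by edgeR), and it was 0.12 without the control sample 2 (adjusted p = 0.54 from edgeR).

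*Krt19*, the smallest keratin, which lacks the tail domain of other keratins, had 85.3, 81.0 and 83.6 FPKM in control corneas and 111, 78.4 and 84.2 FPKM in mutant corneas. The mutant sample 1 alone lay well above the control samples, and the mutant sample 2 lay just below them. The log2 fold change of 0.06 (SE 0.147, 95% interval -0.27 to 0.39, adjusted p = 0.84 by edgeR) turned to -0.17 without the mutant sample 1 (adjusted p = 0.14 from edgeR). *Krt19* is the neighbour of *Krt15* on chromosome 11, with a gap of 4882 bases in GENCODE.

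In FPKM, the groups did not overlap in 3 of the 7 keratins, *Krt15*, *Krt8* and *Krt18*, against 32.6% of all genes tested, and of these *Krt18* had been let in by the mutant group alone. The spread between samples was itself uneven. The coefficient of variation in control corneas was 2.49% for *Krt15*, 2.58% for *Krt19* and 6.35% for *Krt8*, and in mutant corneas it was 23.9%, 19.1% and 47.1%. For *Krt12* and *Krt5* it was 5.11% to 6.61% in both genotypes. *Krt7* went the other way, with 22.4% in control and 7.57% in mutant corneas. *Krt18*, with few counts, was uneven in both, at 38.9% in control and 54.1% in mutant corneas. Of the mutant samples, sample 1 was lowest for *Krt12*, *Krt5* and *Krt8* and highest for *Krt15*, *Krt7* and *Krt19*, but neither for *Krt18*. The mutant sample farthest from the control values was sample 2 for *Krt15*, sample 1 for *Krt8* and *Krt19*, and sample 3 for *Krt18*.

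**Figure D3:**
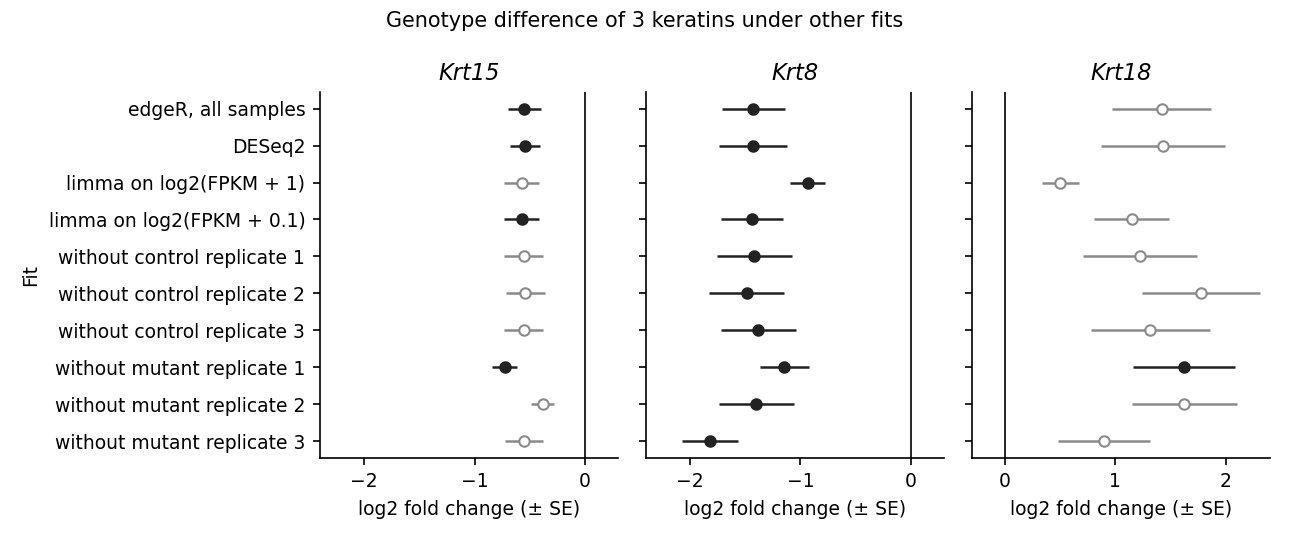
log2 fold change (± standard error) of *Krt15*, *Krt8* and *Krt18* with edgeR on all samples, with DESeq2, with limma at pseudocounts of 1 and 0.1, and with each sample left out in turn. Filled points have an adjusted p under 0.05. *Krt8* is filled in each of the fits drawn, *Krt15* in 4 and *Krt18* in 1. *Krt18* passed the filter on low counts only through the mutant group, so its filled point is not used as support.

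Ratios within a sample do not depend on the scaling between samples. The ratio of *Krt12* to *Krt5* was 1.57, 1.63 and 1.66 in control corneas and 1.57, 1.64 and 1.52 in mutant corneas. The ratio of *Krt8* to *Krt18* was 11.4, 5.15 and 10.1 in control corneas and 0.896, 1.55 and 1.03 in mutant corneas. On the log2 scale it was 3.07 ± 0.62 in control and 0.17 ± 0.41 in mutant corneas (SD, n = 3 each), a difference of -2.90 with no overlap. It is given with no test, because *Krt18* entered through the group in which it is high and its control values rest on 7 to 14 counts. *Krt8* was thus the more abundant of the pair in each control sample, while in mutant corneas the levels of both were close.

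The ratio of *Krt7* to *Krt8*, both type II, was 7.94, 12.04 and 7.07 in control corneas and 44.0, 24.2 and 14.1 in mutant corneas, also without overlap (two-sided exact permutation test, p = 0.1, which is the lowest possible with 3 samples a group, and 0.3 when adjusted over the 9 ratios and shares computed). The ratio of *Krt15* to *Krt5* was 0.0787, 0.0839 and 0.0721 in control corneas and 0.0736, 0.0415 and 0.0546 in mutant corneas. Here the mutant sample 1 fell inside the control range (exact permutation test, two-sided p = 0.2, adjusted p = 0.3). That of *Krt19* to *Krt18*, both type I, ranged from 156 to 328 in control and from 53.6 to 166 in mutant corneas, and the groups overlapped. The ratio of *Krt15* to *Krt12* overlapped as well, at 0.0435 to 0.0514 and 0.0253 to 0.0467 (exact permutation test, two-sided p = 0.2, adjusted p = 0.3), and that of *Krt12* to *Krt5* gave p = 0.4 in the same exact permutation test (adjusted p = 0.45).

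**Figure D4:**
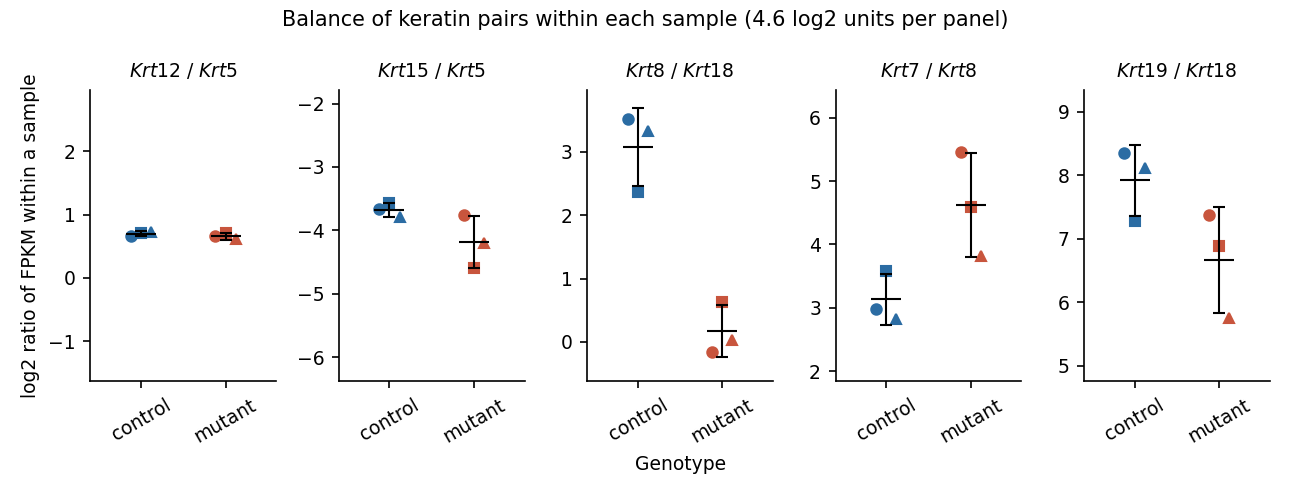
log2 ratio of FPKM of 5 keratin pairs within each sample, by genotype, with the mean and SD (n = 3) as black bars. All panels span the same number of log2 units. The *Krt8* to *Krt18* ratio is apart between the genotypes (2.37 to 3.51 against -0.16 to 0.63), and the *Krt12* to *Krt5* ratio overlaps.

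All keratin genes together held 8.90% to 9.62% of the summed FPKM in control corneas and 9.44% to 9.78% in mutant corneas. The 7 keratins held 79.9%, 81.2% and 80.0% of the keratin FPKM in control corneas and 67.5%, 71.6% and 73.8% in mutant corneas. *Krt12* alone held 47.2% to 48.6% in control and 39.9% to 43.7% in mutant corneas, and *Krt5* 29.2% to 30.01% and 25.4% to 28.5%. A share falls when other keratins rise, and *Krt14*, the type I partner of *Krt5* in basal cells, went from 0.386% to 0.504% of the keratin FPKM to 3.45% to 5.17%. The balance of types was close in all samples, with type I over type II at 1.17 to 1.21 in control and 1.16 to 1.19 in mutant corneas.

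**Figure D5:**
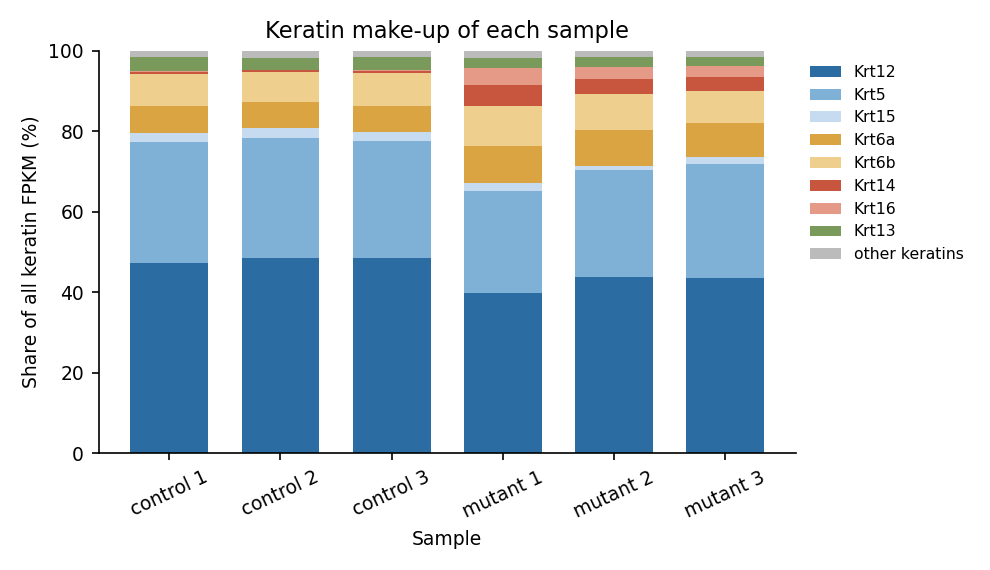
Share of the summed keratin FPKM held by each of the main keratins in the 6 samples, as stacked bars from 0 to 100%. *Krt12*, *Krt5* and *Krt15* (blue shades) form the lower part of each bar and are smaller in mutant corneas, and *Krt14* and *Krt16* (red shades) are larger there.

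Of the 44 other keratin genes, 16 passed the filter on low counts, and 6 of these rose and 1 fell, with a median log2 fold change of 0.38 against -0.0028 over all genes tested, of which 7.82% rose and 5.42% fell. Among those counted as higher, and kept in that median, *Krt20* (5 to 8 counts in control and 12 to 19 in mutant corneas) passed that filter through the mutant group alone. The other 28 had at most 18 counts in any sample. By type, 5 of 7 type I keratins were counted as higher and 1 fell, and 1 of 9 type II keratins rose. The type I count holds *Krt20*, so it is partly set by the filter, and a difference between the types was not tested. The 4 with the smallest adjusted p were *Krt14*, with a log2 fold change of 3.32, *Krt17* (4.02) and *Krt16* (5.12), type I keratins of basal and of injured or activated epithelium, and *Krt6a* (0.51), a type II keratin of the same settings (adjusted p = 1.1e-05, 6.0e-04, 0.0029 and 0.0044 by edgeR, Benjamini-Hochberg). *Krt14* and *Krt16* share 11.01% of the 50-base windows of *Krt14*, and the driver of the recombinase is a *Krt14* promoter. *Krt14* had 203, 149.8 and 181 FPKM in control corneas and 2204, 1579.6 and 1474 FPKM in mutant corneas, so in the latter it was above *Krt15* in each sample. The median log2 fold change over the 7 keratins themselves was -0.07.

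Proteins that tie keratin filaments to desmosomes, hemidesmosomes and the cytoskeleton were counted next, as the partners of these keratins at the cell border. Of 14 such genes tested, 2 rose, near the 13.2% of all genes called in either direction, and the median log2 fold change was 0.07. They were *Macf1*, a linker of actin and microtubules (0.65, adjusted p = 0.0028), and *Pkp3*, a desmosomal plakophilin (0.39, adjusted p = 0.0092), both by edgeR. *Evpl* and *Pkp1*, a plakin of the cornified envelope and another plakophilin, had values of -0.25 and 0.18 (adjusted p = 0.071 and 0.12, edgeR). Of 18 other filament proteins and keratin partners in the table, 15 were tested, 2 rose and 1 fell, against 7.82% and 5.42% of all genes, with a median of -0.02. *Sfn*, which encodes the keratin-binding 14-3-3 protein of stratified epithelia, rose by 0.72 and *Fbxw7*, a subunit of a ubiquitin ligase, by 0.72, while *Lmnb2*, a nuclear lamin, fell by 0.41 (log2 scale, with adjusted p = 0.0012, 0.0014 and 0.047 by edgeR), and *Hspb1*, a small heat shock protein, had a value of -0.32 (adjusted p = 0.097, edgeR).

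Of 28 transcription factors known for corneal or simple keratin genes or for stratification, 28 were tested, 7 rose and 1 fell, against 7.82% and 5.42% of all genes, with a median log2 fold change of 0.03. *Fosl1*, an AP-1 subunit, is among those counted as higher, but it was listed at 0 FPKM in each control sample (1.26 ± 0.36 in mutant corneas, SD, n = 3) and passed the filter on low counts through the mutant group alone. In GENCODE, 57.2% of the exon bases of *Fosl1* overlap *Ccdc85b* on the opposite strand. *Cebpb* and *Cebpd*, factors of the C/EBP family, rose by 0.64 and 0.94 on the log2 scale, and *Foxc1*, a forkhead factor of the eye, fell by 0.63 (adjusted p = 0.0013, 0.0033 and 0.0018 by edgeR).

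Markers of other cells that could carry simple keratins were read beside these values. For the conjunctiva and its goblet cells, 6 of 8 markers were in the table, 1 of 5 tested fell, and their summed FPKM was 2156 to 2481 in control and 1824 to 2200 in mutant corneas. *Muc5ac*, the goblet cell mucin, was at or near 0 in each sample (at most 1 count), and *Krt13* and *Krt4*, keratins of the conjunctiva, had log2 fold changes of -0.45 and -1.01 (adjusted p = 0.015 and 0.091 from edgeR). *Muc4*, a mucin of the same list, went the other way, with means of 910 FPKM in control and 972 in mutant corneas. Its log2 fold change was 0.09 (adjusted p = 0.62 from edgeR). *Agr2* and *Spdef*, at most 28 counts in any sample, had -0.60 and -0.12 (adjusted p = 0.38 and 0.90 from edgeR). The part of conjunctival cells in the lower level of *Krt8* was not tested. The limbal list, which holds *Krt14* and *Krt15*, had 5 of 5 markers, 2 of which rose (*Krt14* and *Ifitm3*) and 1 of which fell (*Krt15*), and its sum was 1126 to 1184 FPKM in control and 2131 to 3111 in mutant corneas. The higher sum was mostly that of *Krt14*, since without it the list summed to 945 to 995 FPKM in control and 551 to 907 in mutant corneas, most of it *Krt15*. Without *Krt15* as well, the sum was higher in mutant corneas, at 64.6 to 113 FPKM against 22.7 to 30.6. *Ifitm3* alone had 55.7 to 93.4 FPKM in mutant and 10.7 to 17.6 in control corneas. *Gpha2* and *Cd63*, the other limbal markers, had log2 fold changes of 0.06 and 0.98 (adjusted p = 0.91 and 0.24, edgeR).

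Beside *Krt18*, which was highest in the mutant sample 3, the corneal endothelial list (4 of 4 in the table) summed to 6.18 to 7.25 FPKM in control corneas and to 6.59, 8.02 and 11.9 in mutant corneas 1 to 3. The lens and retina list (3 of 3) summed to 0.58 to 1.94 in control corneas and to 2.79, 1.87 and 5.40 in mutant corneas, so both were highest in the sample with the most *Krt18*. Their part in the level of *Krt18* was not tested. The keratocyte list (7 of 7) summed to 0.10 to 0.22 FPKM in control and to 0.52 to 3.13 in mutant corneas, with *Dcn* at 0.03 to 0.08 FPKM in control and 0.39 to 1.80 in mutant corneas and up to 2 of its genes at 0 in a sample. *Dcn* was the only gene of that list to pass the filter on low counts, through the mutant group in which it is high, so its test is not used here. The highest sum was in the mutant sample 1, where *Krt8* was lowest and *Krt19* highest. The immune list (7 of 7, 2 tested) summed to 21.5 to 25.6 FPKM in control and 28.9 to 30.45 in mutant corneas, most of it *Cd68*. Neither *Cd68* nor *Cd74*, the 2 tested, passed the test (log2 fold changes 0.22 and 0.49, adjusted p = 0.22 and 0.18 from edgeR). *Cd207*, with at most 2 counts, had a lower mean in mutant corneas, and *Ptprc*, carried by all white blood cells, had at most 14 counts. The melanocyte list (3 of 3) summed to 1.5 to 1.79 FPKM in all samples. The list of the meibomian and lacrimal glands (3 of 4) summed to 15.5 to 18.4 FPKM in control corneas. In mutant corneas 1 to 3 it summed to 18.8, 18.45 and 22.6 FPKM, most of it *Scd1*. The vessel list (3 of 4) summed to at most 0.09 FPKM in control corneas and to 0.19, 0.14 and 0.23 in mutant corneas. The gland and vessel lists were thus also highest in the mutant sample 3, and their part in the level of *Krt18* was not tested.

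The genes whose profile was nearest to each keratin were sought over the 6 samples, by the root mean square difference of log2 CPM values set to the control mean, among genes with a mean of at least 10 CPM. For *Krt8* they were *Cyp4a12a*, *Npr3* and *Cyp2b19*, at 0.27, 0.29 and 0.33, and for *Krt18* they were *Pmepa1*, *Sema6d* and *Ercc1*, at 0.39 to 0.40. For *Krt15* they were *Cyb5a*, *Senp8* and *Plpp3*, at 0.14 to 0.15. The nearest genes were *Trim26*, *Rfxank* and *Ly6g6e* for *Krt12* (0.03 each), *Ppp1r16a*, *Rpl21* and *Tfap2a* for *Krt5* (0.02 to 0.03), *Dgkd*, *Plin2* and *Pkd2* for *Krt7* (0.07 to 0.08), and *Sec11a*, *Tomm5* and *Tada2a* for *Krt19* (0.04 to 0.06).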

How the data were processed

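After rRNA depletion the authors read 50 bases from 1 end of each fragment on the BGISEQ-500 platform (the labels describe an Illumina TruSeq kit), filtered with SOAPnuke, aligned with Bowtie2 2.2.5 and deposited RSEM 1.2.12 expected counts per gene, neither normalized nor pooled. The authors also deposited FPKM values, which RSEM scales by transcript length and sample total and which were used as given. The submitters' notes name mm9, while the coordinates of the table are those of GRCm38. The deposited fold changes and p-values of the authors' own comparison and their group averages were not used.

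Samples were grouped by the genotype in the labels. Expected counts were rounded and tested with edgeR 4.0.16 in R 4.3.3 (TMM scaling, filterByExpr at its count minimum of 10 and total minimum of 15, quasi-likelihood test), and p-values were Benjamini-Hochberg adjusted over 12667 genes. The standard error of a log2 fold change was its absolute value divided by the root of the F statistic. Rounding, the filter and the scaling could each change the values of low genes such as *Krt18*. Total expected counts were 19492942 to 19733834 per sample. For ratios within a sample, two-sided exact permutation tests were used. Other fits left out each sample in turn, used DESeq2 1.42.0 or limma 3.58.1 (log2 of FPKM plus 1 or plus 0.1), scaled by the upper quartile, dropped the filter or asked for 10 counts in all samples, or added the replicate number as a block, and ratios were repeated with CPM.

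The text names the 7 keratins, *Krt14*, *Rela*, the 4 genes with the smallest adjusted p among the other keratins, the linkers, the filament partners and the transcription factors, the 3 nearest profiles of each keratin and, chosen after their values were seen, single markers of cell types and *Krt20*. The keratins and lists were chosen with earlier results of these data known. The motif search used the 250 bases before each RefSeq start. Shared 50-base windows and exon overlap were counted in GENCODE M21 on both strands. The statistics were tested on simulated data.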

Additional observations from a re-analysis of the deposited data

How the results depend on the processing

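The values of *Krt12*, *Krt5*, *Krt15* and *Krt8* stayed negative and that of *Krt18* positive in all alternatives fitted (13 each, and 12 for *Krt18*, which had too few counts for the filter of at least 10 counts in every sample). *Krt8* kept an adjusted p under 0.05 in 13 of 13, with log2 fold changes from -1.82 to -0.93, the latter with limma on log2(FPKM + 1). *Krt15* had -0.57 there (adjusted p = 0.052 from limma), ranged from -0.73 to -0.38 with each sample left out, and had an adjusted p under 0.05 in 7 of 13. With each sample left out in turn, *Krt18* ranged from 0.90 to 1.78, *Krt7* from -0.17 to 0.12 and *Krt19* from -0.17 to 0.17. *Krt7* was 0.12 without the control sample 2, and *Krt19* was -0.17 without the mutant sample 1. The log2 ratio of the summed simple epithelial keratins to the summed corneal and basal keratins, higher by 0.16 in the mutant samples, was -0.0051 without the mutant sample 1 and ranged up to 0.27 without another sample. The keratins with an adjusted p under 0.05 numbered 1 with limma on log2(FPKM + 1) and 1 to 3 with each sample left out. The count of 3 came without the mutant sample 1 and included *Krt18*, let in by the mutant group alone. Past both stricter thresholds (adjusted p not above 0.001, 2-fold or more) there was 1 keratin with DESeq2. Of all genes, 330 passed those thresholds with DESeq2, 114 with limma on log2(FPKM + 1) and 36 to 193 with each sample left out, against 173. Those with an adjusted p under 0.05 numbered 857 to 1869 with each sample left out, against 1678. The cause was not tested. The deviations of same-numbered samples from their group means were weakly correlated (r = 0.019, 0.048 and -0.046). Those of differently numbered samples were of similar size (-0.077 to 0.064). With 3 samples a group these values cannot show whether the samples were paired. With a replicate block, *Krt15* was -0.58 and *Krt8* -1.48 (adjusted p = 0.033 and 0.0105 from edgeR), *Krt18* was 1.37 (adjusted p = 0.092 from edgeR), and 176 genes passed both thresholds. Depth limits *Krt18* most, since its control values rest on 7 to 14 counts.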
